A study of Mus musculus with 9 samples.

Results

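The genes described here are 10 mast cell genes of mouse skin, 5 that encode granule proteases (Cma1, Mcpt4, Tpsb2, Tpsab1 and Cpa3), 3 for the growth factor receptor Kit and for the alpha and beta subunits of the high-affinity IgE receptor (Kit, Fcer1a and Ms4a2), the histamine-forming enzyme Hdc and the receptor Mrgprb2. They were taken by gene name, and each of the 10 was found among the 29205 genes of the table. RNA of back skin from male BALB/c mice aged 6 to 8 weeks was sequenced in 3 groups of 3 libraries. Hair was removed from the back skin in each group, by shaving and a depilatory cream. Control mice received no imiquimod, and their treatment is given as blank, with no vehicle cream named. IMQ mice had 62.5 mg of a 5% imiquimod cream put on the back each day for 5 days, which gives a psoriasis-like inflammation. LYS mice had the same cream and, by gavage, Longkui Yinxiao soup, a herbal decoction, at the dose that the study's methods call LYS-High and that the sample labels leave out. No gavage of a vehicle is named for control or IMQ mice, and the soup was given on more days than the cream. Skin was collected on day 13. No library came from skin of mice given the soup without imiquimod, so the LYS and control groups differ in both agents. The paper states that skin for sequencing was taken at random from each group, with n = 3. It describes the samples of a group as biological duplicates. The labels do not say whether each library comes from 1 mouse, so p-values measure the spread between these samples. Summed counts per library ran from 14658645 to 19609878. Keratinocyte markers, the defining markers of skin, were found in all 9 libraries.

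Mast cells are granule-filled immune cells that live in connective tissue, in skin mostly in the dermis beside vessels and nerves. Their granules hold chymases, tryptases and carboxypeptidase A bound to heparin, together with histamine, and empty when antigen cross-links IgE on its receptor or when other receptors such as Mrgprb2 are triggered. Growth and survival of the cells depend on Kit and its ligand, stem cell factor.

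IMQ against control asks how these genes differ between imiquimod-treated and untreated skin. Transcripts of 4 proteases, of Kit, of the IgE receptor beta subunit Ms4a2 and of Mrgprb2 were lower in each IMQ library than in any control library, while Hdc was higher in each. Summed over the 4 abundant proteases Cma1, Mcpt4, Tpsb2 and Cpa3, levels were 224, 281 and 159.7 CPM in control libraries 1 to 3, 91.4, 65.4 and 63.0 CPM in the IMQ libraries and 127, 200.2 and 248 CPM in the LYS libraries. Levels here are CPM, counts brought to a common library total with the TMM factors of edgeR over the 9 libraries. The IMQ libraries lie below both other groups in that sum, and control and LYS libraries overlap. A gene was called higher or lower at an edgeR adjusted p under 0.05 with an absolute log2 fold change over 0.58. By that rule 7 of the 10 genes fell in the IMQ group against control and 1 rose. Over the 15976 genes tested, 26.9% (4291) were called lower and 24.1% (3854) higher. Without scaling beyond library totals 6854 genes (42.9%) were called lower and 2390 (15%) higher, and the same 7 lower and 1 higher of the 10. With all 9 libraries in 1 fit 25% were called lower and 24.1% higher, and again the same 7 and 1. The median log2 fold change was -1.45 over the 10 genes and -0.06 over all genes tested. For 7 of the 10 the groups did not overlap in CPM with IMQ lower, which held for 38.9% of all genes tested. In bulk RNA, fewer cells of a type, less RNA per cell and a larger share of RNA from other cells cannot be told apart.

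LYS against IMQ asks how the genes differ with and without the soup in imiquimod-treated skin. In 7 of the 10 genes (Cma1, Mcpt4, Tpsb2, Cpa3, Kit, Ms4a2 and Mrgprb2) each LYS library lay above each IMQ library, which held for 19.2% of the 15460 genes tested. None of the 10 passed the test in edgeR on these 6 libraries, where 0% of all genes were called higher, although 5435 genes had an unadjusted p under 0.05 and DESeq2 called 3345 genes. Called higher were the same 7 genes in DESeq2, beside 13.3% of genes, and the same 7 in edgeR with all 9 libraries in the fit, beside 9.93% of genes, with 8.62% of genes called lower in that fit. Without IMQ 1, edgeR on the remaining 5 libraries called 1077 of 15840 genes higher (6.8%) and 796 lower, and 5 of the 10 higher (Cma1, Mcpt4, Cpa3, Kit and Ms4a2). Without LYS 1 it called 2370 of 15895 genes higher (14.9%) and 1892 lower, and 7 of the 10 higher (those 5, Tpsb2 and Tpsab1). With no filter on low counts 6 of the 10 were called higher on the 6 libraries, beside 5.3% of 27402 genes. Without IMQ 2, IMQ 3, LYS 2 or LYS 3 in turn, 0 genes were called. With RLE scaling, without scaling and with a block on replicate number, 0 genes were called as well. The median log2 fold change was 1.36 over the 10 genes and 0.04 over all genes tested.

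LYS against control shows where the groups with both agents and with neither stand. Hdc rose, and none of the other 9 genes passed the test in edgeR, beside 15.1% of all 16003 genes tested called higher and 12.9% called lower. Those shares were 12% higher and 16.9% lower without scaling beyond library totals, 15% and 12.8% with RLE scaling and 16% and 12% with all 9 libraries in the fit, each with Hdc alone of the 10. Genes called numbered 4476 with all 6 libraries, 2579 without control 1, 2947 without control 2 and 2926 without LYS 2. Of the genes tested 9.2%, 9.93% and 10.8% were called higher in the last 3 of these, and 1 of the 10 was called, higher, in each case. The median log2 fold change was 0.00 over the 10 genes and -0.01 over all genes tested. The 3 comparisons share libraries in pairs, so their values are not independent of each other. Without scaling beyond library totals the median over all genes became -0.51 for IMQ against control, 0.29 for LYS against IMQ and -0.15 for LYS against control. The medians of the 10 genes were then -1.88, 1.62 and -0.10. The sign of the third one turned, as did that of Tpsb2 in LYS against control, from 0.08 to -0.02. Fold changes below are relative to the TMM scaling.

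**Figure D1:**
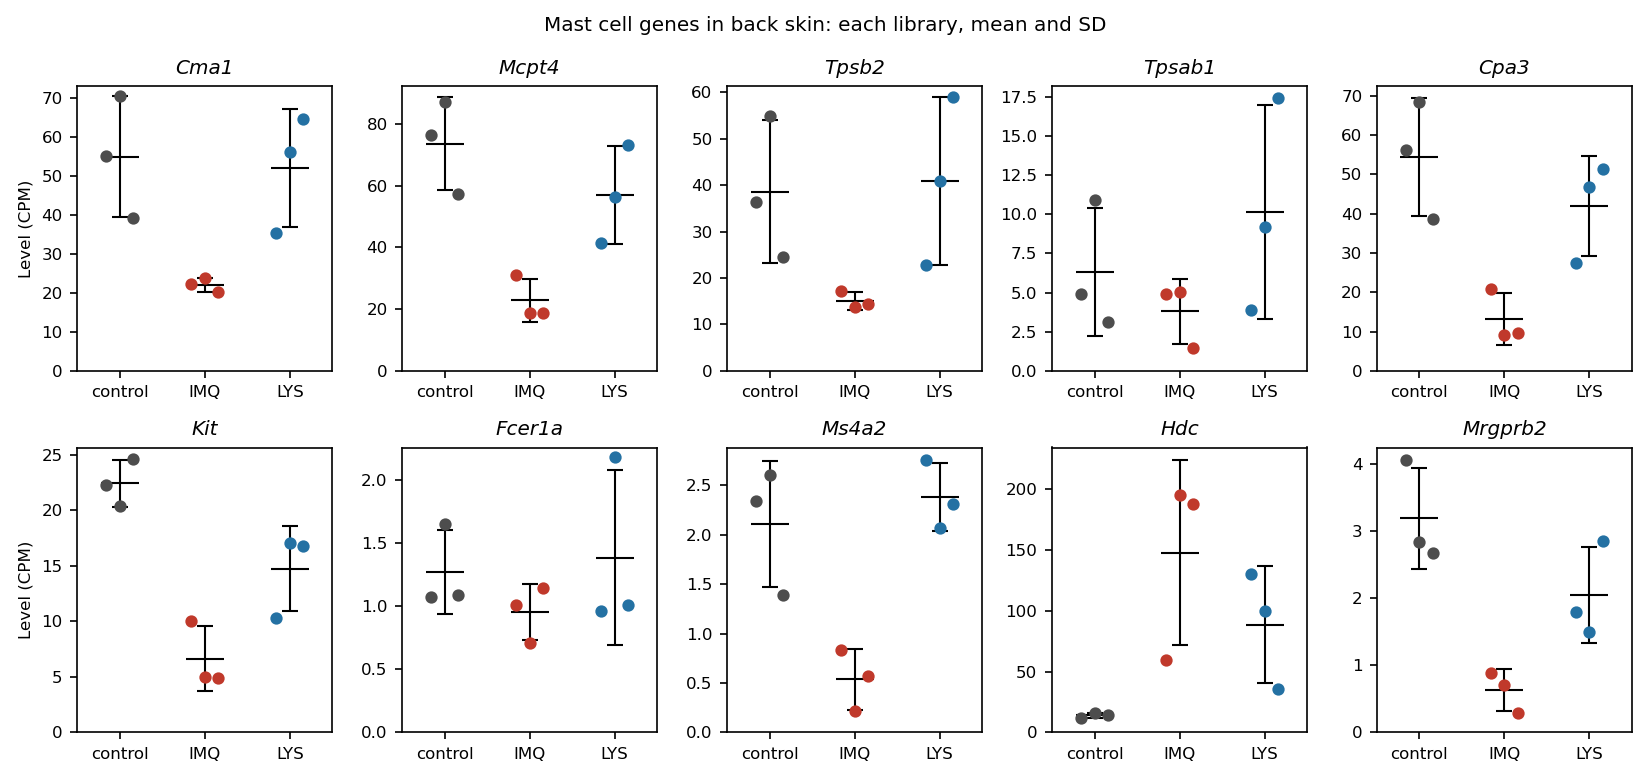
Level in CPM of the 10 mast cell genes in each library (points), with the group mean (horizontal line) and SD (bar), n = 3 per group and each axis starting at 0. The IMQ points of Cma1, Mcpt4, Tpsb2, Cpa3, Kit, Ms4a2 and Mrgprb2 lie below all control points and below all LYS points.

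The chymase family of serine proteases is stored in granules of connective tissue mast cells. Cma1 (mast cell chymase 1, ENSMUSG00000022225) lies on the minus strand of chromosome 14 at 55941451 to 55944675 in GRCm38. Its levels were 55.1, 70.6 and 39.4 CPM in control libraries 1 to 3, 22.4, 23.8 and 20.1 CPM in the IMQ libraries and 35.4, 56.3 and 64.6 CPM in the LYS libraries. IMQ libraries sit close together below all others, and LYS 1 is below all control libraries while LYS 2 and LYS 3 lie within the control range. Means were 55.0 ± 15.6 CPM in control, 22.1 ± 1.83 in IMQ and 52.1 ± 15.1 in LYS (SD, n = 3). Cma1 fell in IMQ against control (log2 fold change -1.25, SE 0.20, edgeR adjusted p = 0.00114). For LYS against IMQ the values were log2 fold change 1.24, SE 0.23, edgeR adjusted p = 0.0591. Against control the LYS group gave log2 fold change -0.08, SE 0.26, edgeR adjusted p = 0.842, and the sign of that difference turned without control 2 (0.13) and without LYS 1 (0.13).

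Mcpt4 (mast cell protease 4, ENSMUSG00000061068), the chymase taken as the closest mouse counterpart of human chymase in function, lies on the same strand of chromosome 14 at 56059629 to 56062313. Its levels were 76.4, 87.1 and 57.3 CPM in control libraries 1 to 3, 31.0, 18.8 and 18.8 CPM in the IMQ libraries and 41.4, 56.3 and 73.2 CPM in the LYS libraries. IMQ 1 was the highest of its group, still below LYS 1, and the ranges of control and LYS overlap. Means were 73.6 ± 15.1 CPM in control, 22.9 ± 7.04 in IMQ and 57.0 ± 15.9 in LYS (SD, n = 3). Mcpt4 fell in IMQ against control (log2 fold change -1.62, SE 0.24, edgeR adjusted p = 0.000661). In LYS against IMQ the difference was log2 fold change 1.32, SE 0.28, edgeR adjusted p = 0.0591, and in LYS against control log2 fold change -0.37, SE 0.22, edgeR adjusted p = 0.239, which became -0.19 without LYS 1, -0.24 without control 2 and -0.56 without LYS 3. Per length, Mcpt4 had the highest mean of the 10 genes in control, at 74.5 ± 12.3 FPKM (fragments counted, scaled to transcript length and library total, as deposited; SD, n = 3), followed by Cma1 at 56.5 ± 13.6 FPKM. The gap between both means is smaller than the sum of their SDs.

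Tryptases are trypsin-like proteases that mast cells store as tetramers. Tpsb2 (tryptase beta 2, ENSMUSG00000033825) lies on the plus strand of chromosome 17 at 25366305 to 25369098. Its levels were 36.4, 54.9 and 24.5 CPM in control libraries 1 to 3, 17.3, 13.7 and 14.3 CPM in the IMQ libraries and 22.7, 40.9 and 59.0 CPM in the LYS libraries. The IMQ libraries are the lowest 3 of the 9, and LYS 3 is the highest. Tpsb2 fell in IMQ against control (log2 fold change -1.29, SE 0.27, edgeR adjusted p = 0.00418), with means of 38.6 ± 15.4 CPM in control and 15.1 ± 1.91 in IMQ (SD, n = 3). The LYS mean was 40.9 ± 18.2 CPM (SD, n = 3), with log2 fold change 1.44, SE 0.33, edgeR adjusted p = 0.0591 against IMQ. Against control the LYS group gave log2 fold change 0.08, SE 0.37, edgeR adjusted p = 0.885, a difference whose sign also turned without control 3 (-0.16) and without LYS 3 (-0.25).

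Tpsab1 (tryptase alpha/beta 1, ENSMUSG00000024173) lies on the minus strand of chromosome 17 at 25343245 to 25345562. In the reference genome, which is not of BALB/c mice, it is annotated as protein coding in GENCODE M21 and as a transcribed pseudogene in RefSeq. The state of the gene in BALB/c was not tested. Its levels were 4.93, 10.9 and 3.12 CPM in control libraries 1 to 3, 4.92, 5.05 and 1.43 CPM in the IMQ libraries and 3.86, 9.21 and 17.4 CPM in the LYS libraries. Groups overlap in each pair, with IMQ 3 the lowest library and LYS 3 the highest. With all libraries it was not called in any of the 3 comparisons, with log2 fold change -0.66, SE 0.55, edgeR adjusted p = 0.328 for IMQ against control, a difference of -0.02 without control 2, -0.26 without IMQ 3 and -1.07 without scaling. The LYS group gave log2 fold change 1.41, SE 0.64, edgeR adjusted p = 0.1603 against IMQ. Without LYS 1 the latter difference was 1.79 and was called, at an edgeR adjusted p of 0.0453 in a range of 0.0453 to 0.466 over the settings tried, and without LYS 3 it was 0.78 (edgeR adjusted p = 0.466). LYS against control gave log2 fold change 0.68, SE 0.58, edgeR adjusted p = 0.400. Leaving out 1 library moved that difference from 0.08 (without LYS 3) to 1.32 (without control 2), with 0.36 without control 3 and 1.07 without LYS 1. Per length it was the least abundant of the 5 proteases, with a mean FPKM of 3.34 ± 2.01 in control, beside 27.0 ± 9.61 for Tpsb2 (SD, n = 3).

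Cpa3 (mast cell carboxypeptidase A3, ENSMUSG00000001865), a zinc protease that trims residues from the C-terminus of peptides, lies on the minus strand of chromosome 3 at 20215620 to 20242181. Its levels were 56.1, 68.3 and 38.6 CPM in control libraries 1 to 3, 20.8, 9.18 and 9.67 CPM in the IMQ libraries and 27.5, 46.8 and 51.4 CPM in the LYS libraries. IMQ 1 was above IMQ 2 and IMQ 3 and below all libraries of the other groups, and control and LYS overlap. Means were 54.3 ± 14.95 CPM in control, 13.2 ± 6.55 in IMQ and 41.9 ± 12.7 in LYS (SD, n = 3). Cpa3 had the largest fall of the 5 proteases in IMQ against control (log2 fold change -1.97, SE 0.34, edgeR adjusted p = 0.00159). Values for LYS were log2 fold change 1.66, SE 0.38, edgeR adjusted p = 0.0591 against IMQ and log2 fold change -0.37, SE 0.27, edgeR adjusted p = 0.317 against control. The latter became -0.15 without LYS 1, -0.19 without control 2 and -0.57 without control 3.

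The mix of the proteases can be read from their shares of the summed FPKM of the 5. Cpa3 made up 19.9% ± 0.420 of it in control, 13.8% ± 3.86 in IMQ and 17.6% ± 1.17 in LYS (SD, n = 3). Its share in single libraries was 20.4, 19.8 and 19.5% in control libraries 1 to 3, 18.2, 10.8 and 12.4% in the IMQ libraries and 17.4, 18.9 and 16.6% in the LYS libraries. IMQ 2 and IMQ 3 are the lowest, and IMQ 1 lies inside the LYS range. Cma1 made up 28.0% ± 0.342 in control, 34.0% ± 6.13 in IMQ and 30.6% ± 1.43 in LYS (SD, n = 3), again with IMQ 1 (27.2%) beside the controls and IMQ 2 (39.1%) and IMQ 3 (35.8%) above all other libraries. Mcpt4 held 37.4% ± 2.69, 33.5% ± 3.41 and 33.1% ± 2.51 in the same order of groups (SD, n = 3). The differences between groups in these shares were not tested. Summed FPKM of the 5 was 205, 246 and 153 FPKM in control libraries 1 to 3, 70.6, 46.1 and 42.5 FPKM in the IMQ libraries and 103, 169 and 217 FPKM in the LYS libraries.

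Kit (ENSMUSG00000005672), the receptor tyrosine kinase for stem cell factor, is carried by mast cells and also by melanocytes. It lies on the plus strand of chromosome 5 at 75574916 to 75656722. Its levels were 22.3, 20.4 and 24.6 CPM in control libraries 1 to 3, 10.02, 4.98 and 4.94 CPM in the IMQ libraries and 10.3, 17.1 and 16.8 CPM in the LYS libraries. The 3 groups do not overlap, though IMQ 1 and LYS 1 lie side by side. Means were 22.4 ± 2.12 CPM in control, 6.65 ± 2.92 in IMQ and 14.7 ± 3.82 in LYS (SD, n = 3). Kit fell in IMQ against control (log2 fold change -1.68, SE 0.28, edgeR adjusted p = 0.00134). The LYS group gave log2 fold change 1.14, SE 0.35, edgeR adjusted p = 0.0771 against IMQ. It lay below control in each library, with log2 fold change -0.60, SE 0.20, edgeR adjusted p = 0.0572, and DESeq2 called that difference (log2 fold change -0.61, DESeq2 adjusted p = 0.0422, in a range of 0.0422 to 0.159 over the settings tried), beside 12.4% of genes called lower in DESeq2. Markers of melanocytes, which also carry Kit, summed to 366, 326 and 522 CPM in control libraries 1 to 3, 36.0, 34.5 and 15.3 CPM in the IMQ libraries and 24.05, 30.3 and 38.0 CPM in the LYS libraries, with Tyrp1 the most abundant in control, Pmel in IMQ and Mlana in LYS (by mean FPKM in a group, as for each list below) and none at 0 in all libraries. Of the 8 on that list, 7 were called lower in IMQ against control (8 without scaling) and 7 in LYS against control, and their part in the Kit result was not tested.

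The high-affinity IgE receptor of mast cells and basophils is built from an alpha chain that binds IgE, a beta chain that amplifies the signal and a pair of gamma chains. Fcer1a, the alpha chain (ENSMUSG00000005339), lies on the minus strand of chromosome 1 at 173221284 to 173227214, and Ms4a2, the beta chain (ENSMUSG00000024680), on the minus strand of chromosome 19 at 11615523 to 11623719. Both had few counts. Fcer1a had 22, 35 and 22 counts in control libraries 1 to 3, 17, 10 and 16 in the IMQ libraries and 14, 38 and 17 in the LYS libraries. That is 1.07, 1.66 and 1.09 CPM in control libraries 1 to 3, 1.01, 0.712 and 1.15 CPM in the IMQ libraries and 0.965, 2.19 and 1.01 CPM in the LYS libraries, and the groups overlap in each pair, with LYS 2 the highest. It was not called, with log2 fold change -0.35, SE 0.36, edgeR adjusted p = 0.419 for IMQ against control, a difference of -0.13 without control 2, -0.18 without IMQ 2 and -0.79 without scaling. The LYS group gave log2 fold change 0.54, SE 0.45, edgeR adjusted p = 0.410 against IMQ, which fell to 0.05 without LYS 2. Against control it gave 0.14, turning to -0.35 without LYS 2 and 0.01 without scaling.

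Ms4a2 had 48, 55 and 28 counts in control libraries 1 to 3, 14, 3 and 8 in the IMQ libraries and 40, 36 and 39 in the LYS libraries. In CPM these are 2.34, 2.60 and 1.39 CPM in control libraries 1 to 3, 0.830, 0.213 and 0.573 CPM in the IMQ libraries and 2.76, 2.07 and 2.31 CPM in the LYS libraries. IMQ libraries are the lowest 3, control 3 is the lowest outside them, and control and LYS overlap. Means were 2.11 ± 0.640 CPM in control, 0.539 ± 0.310 in IMQ and 2.38 ± 0.347 in LYS (SD, n = 3). Ms4a2 fell in IMQ against control (log2 fold change -1.87, SE 0.48, edgeR adjusted p = 0.0107), and LYS against IMQ gave log2 fold change 2.11, SE 0.47, edgeR adjusted p = 0.0591. Its difference between LYS and control was 0.18 and turned to -0.05 without control 3. Fcer1g, the gamma chain, which many other immune cells also carry, had 53.9, 33.2 and 30.6 CPM in control libraries 1 to 3, 33.5, 71.8 and 55.2 CPM in the IMQ libraries and 55.5, 95.4 and 106 CPM in the LYS libraries. IMQ 1 lies within the control range of Fcer1g, and LYS 2 and LYS 3 are the highest. Fcer1g was not called in IMQ against control (log2 fold change 0.51, SE 0.30, edgeR adjusted p = 0.177) and rose in LYS against control (log2 fold change 1.12, SE 0.29, edgeR adjusted p = 0.0222).

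Basophils share the IgE receptor, so the basophil markers Mcpt8, Prss34, Cd200r3 and Il4 stand beside these values. None of the 4 had enough counts to be tested in IMQ against control, and their sum was 0.977, 1.13 and 1.54 CPM in control libraries 1 to 3, 1.60, 0.996 and 0.573 CPM in the IMQ libraries and 5.51, 2.47 and 3.09 CPM in the LYS libraries. Il4 was the most abundant on the list in control and IMQ and Mcpt8 in LYS, and none of the 4 was at 0 in all libraries. Mcpt8 had 31 counts in LYS 1 and at most 6 in any other library, and Prss34 had at most 4 counts in any. LYS libraries have the highest 3 sums. In LYS against IMQ 2 of the 4 were tested and 0 were called in edgeR, and with all 9 libraries in the fit 1 (Cd200r3) was called higher. Against control, 2 were tested in LYS and Cd200r3 was called higher in edgeR on the 6 libraries (log2 fold change 1.55, SE 0.42, edgeR adjusted p = 0.0273), with a median of 1.32, and 0 were called with all 9 libraries in the fit. Their part in the values of Fcer1a and Ms4a2 was not tested.

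Hdc (histidine decarboxylase, ENSMUSG00000027360) makes histamine, and is expressed by mast cells, basophils and also by neutrophils and macrophages under stimulation. It lies on the minus strand of chromosome 2 at 126593667 to 126619299. Its levels ran opposite to the proteases, with 11.9, 15.8 and 14.7 CPM in control libraries 1 to 3, 59.9, 195 and 188 CPM in the IMQ libraries and 129.9, 99.4 and 35.9 CPM in the LYS libraries. All IMQ and LYS libraries lie above all controls, IMQ 1 is well below IMQ 2 and IMQ 3, and LYS 3 is below IMQ 1. Means were 14.1 ± 2.05 CPM in control, 148 ± 76.0 in IMQ and 88.4 ± 48.0 in LYS (SD, n = 3). Hdc rose in IMQ against control (log2 fold change 3.44, SE 0.42, edgeR adjusted p = 0.000299) and in LYS against control (log2 fold change 2.67, SE 0.45, edgeR adjusted p = 0.00501). LYS against IMQ gave log2 fold change -0.74, SE 0.56, edgeR adjusted p = 0.376, with overlapping groups. That difference was -0.36 without LYS 3, -1.12 without IMQ 1, -1.13 without LYS 1 and -0.46 without scaling. Neutrophil markers summed to 52.3, 44.7 and 88.2 CPM in control libraries 1 to 3, 20637, 27488 and 27764 CPM in the IMQ libraries and 17157, 16546 and 6052 CPM in the LYS libraries, with S100a9 the most abundant in each group and none at 0 in all libraries. Of the 7 tested on that list of 8, 7 were called higher in IMQ against control and 7 in LYS against control. LYS 3 is the lowest of the 6 treated libraries in that sum as in Hdc, and the part of neutrophils in the Hdc result was not tested.

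Mrgprb2 (ENSMUSG00000050425), the receptor through which cationic peptides and drugs trigger connective tissue mast cells without IgE, lies on the minus strand of chromosome 7 at 48550965 to 48558086. It had 83, 60 and 54 counts in control libraries 1 to 3, 15, 10 and 4 in the IMQ libraries and 26, 26 and 48 in the LYS libraries. In CPM these are 4.05, 2.84 and 2.67 CPM in control libraries 1 to 3, 0.890, 0.712 and 0.287 CPM in the IMQ libraries and 1.79, 1.50 and 2.85 CPM in the LYS libraries. The IMQ libraries are the lowest 3, and LYS 3 alone of its group reaches the control range. Means were 3.19 ± 0.753 CPM in control, 0.629 ± 0.310 in IMQ and 2.05 ± 0.711 in LYS (SD, n = 3). Mrgprb2 fell in IMQ against control (log2 fold change -2.25, SE 0.42, edgeR adjusted p = 0.00215). For LYS the values were log2 fold change 1.67, SE 0.49, edgeR adjusted p = 0.0720 against IMQ and log2 fold change -0.63, SE 0.33, edgeR adjusted p = 0.175 against control. Mrgprb1, a related receptor on the list of other mast cell receptors, had 8.69, 10.1 and 7.38 CPM in control libraries 1 to 3, 3.62, 2.13 and 1.29 CPM in the IMQ libraries and 4.34, 10.4 and 10.1 CPM in the LYS libraries. It too is lowest in the IMQ libraries, and LYS 2 and LYS 3 are at or above the top of the control range. Mrgprb1 fell in IMQ against control (log2 fold change -1.81, SE 0.35, edgeR adjusted p = 0.00262).

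Per length, the order of the mean levels differed between the groups. In control it ran in FPKM (SD, n = 3) from Mcpt4 at 74.5 ± 12.3, Cma1 at 56.5 ± 13.6, Cpa3 at 40.1 ± 9.43, Tpsb2 at 27.0 ± 9.61, Tpsab1 at 3.34 ± 2.01, Kit at 2.85 ± 0.393, Hdc at 2.49 ± 0.343, Mrgprb2 at 1.73 ± 0.411, Fcer1a at 1.43 ± 0.312 and Ms4a2 at 0.840 ± 0.226. Neighbours in that order are apart by more than the sum of their SDs at Tpsb2 and Tpsab1, at Hdc and Mrgprb2 and at Fcer1a and Ms4a2, and the other neighbours are not. In IMQ it ran from Hdc at 19.4 ± 9.22, Mcpt4 at 18.1 ± 7.05, Cma1 at 17.5 ± 2.04, Tpsb2 at 8.22 ± 1.68, Cpa3 at 7.70 ± 4.44, Tpsab1 at 1.59 ± 0.892, Fcer1a at 0.828 ± 0.207, Kit at 0.658 ± 0.343, Mrgprb2 at 0.266 ± 0.145 and Ms4a2 at 0.169 ± 0.107. There Cma1 and Tpsb2, and Cpa3 and Tpsab1, are apart by more than the sum of their SDs, and the other neighbours are not. In LYS it ran from Mcpt4 at 53.3 ± 16.6, Cma1 at 49.5 ± 15.8, Cpa3 at 28.6 ± 9.48, Tpsb2 at 26.7 ± 12.6, Hdc at 14.1 ± 7.30, Tpsab1 at 5.07 ± 3.52, Kit at 1.71 ± 0.489, Fcer1a at 1.43 ± 0.729, Mrgprb2 at 1.02 ± 0.382 and Ms4a2 at 0.869 ± 0.103. No neighbours in the LYS order are apart by more than the sum of their SDs.

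Other genes of mast cell granules and mediator synthesis include several that other blood cells make too. Of 17 genes listed, 16 were in the table (Mcpt9 was not), Mcpt1 had at most 3 counts in any library and 11 were tested in IMQ against control, where 3 rose (Srgn, Hpgds and Rab27b) and 0 fell. Ctsc rose as well with RLE scaling and with all 9 libraries in the fit. Their median was 0.28, beside -0.06 over all genes, and -0.16 without scaling, beside -0.51. Srgn, the core protein of granule proteoglycan that other blood cells also make, had 40.9, 36.0 and 29.4 CPM in control libraries 1 to 3, 157, 718 and 606 CPM in the IMQ libraries and 292, 206 and 88.2 CPM in the LYS libraries. All treated libraries are above all controls, and LYS 3 is the lowest of the 6 (log2 fold change 3.86, SE 0.52, edgeR adjusted p = 0.000455, for IMQ against control). Hpgds, which makes prostaglandin D2, was at 72.5, 87.2 and 68.0 CPM in the IMQ libraries and at 27.5, 18.7 and 21.8 CPM in control. Slc18a2, which loads monoamines into granules, had 2.34, 2.32 and 2.87 CPM in control libraries 1 to 3, 2.43, 1.42 and 1.86 CPM in the IMQ libraries and 2.89, 4.55 and 4.51 CPM in the LYS libraries. Its control range lies within the range of the other libraries, LYS 2 and LYS 3 are the highest, and it was not called in IMQ against control (log2 fold change -0.33, SE 0.30, edgeR adjusted p = 0.362). In LYS against IMQ 0 of 12 tested were called in edgeR, with a median of 0.28, and with all 9 libraries in the fit Slc18a2 was called higher and Rab27b lower. Of 11 tested in LYS against control 4 rose (Srgn, Hpgds, Ctsc and Rab27b) and 0 fell, with a median of 0.67. Summed CPM of the list, with Ctsc the most abundant in control and Srgn in IMQ and LYS, was 505, 388 and 413 CPM in control libraries 1 to 3, 879, 1475 and 1290.2 CPM in the IMQ libraries and 1032, 999 and 716 CPM in the LYS libraries.

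Genes of IgE receptor and Kit signalling are in large part shared by other blood cells. All 19 listed were tested in IMQ against control, where 11 rose and 1 (Gab2) fell, with a median of 0.61. Without scaling 2 were called higher and 4 lower, and the median was 0.16, beside -0.51 over all genes. Gab2, the docking protein through which the receptors reach phosphoinositide 3-kinase, had 34.8, 33.5 and 25.2 CPM in control libraries 1 to 3, 19.0, 16.2 and 16.3 CPM in the IMQ libraries and 22.3, 30.6 and 32.5 CPM in the LYS libraries. IMQ libraries are the lowest 3 (log2 fold change -0.80, SE 0.16, edgeR adjusted p = 0.00315). Plcg2 (1.35, edgeR adjusted p = 9.28e-05), Vav1 (1.14, edgeR adjusted p = 0.00139) and Lat (1.42, edgeR adjusted p = 0.0124) were among those that rose. In LYS against IMQ 0 were called in edgeR and 8 were called higher with all 9 libraries in the fit. In LYS against control 13 rose and 0 fell, with a median of 1.30, and without scaling 11 rose.

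Growth factors, cytokine receptors and lineage factors of mast cells split in direction. Of 19 genes listed, 18 were in the table (Il3 was not) and 14 were tested in IMQ against control, where 6 rose and 3 (Kitl, Il1rl1 and Mitf) fell. Their median was 0.34, and -0.10 without scaling, where 3 were called higher and 4 lower. Kitl, the stem cell factor that Kit binds, had 75.2, 66.2 and 73.9 CPM in control libraries 1 to 3, 27.5, 14.9 and 14.3 CPM in the IMQ libraries and 23.4, 42.6 and 57.8 CPM in the LYS libraries. Controls are the highest 3 and LYS 1 lies within the IMQ range (log2 fold change -1.86, SE 0.25, edgeR adjusted p = 0.000435, for IMQ against control). Il1rl1, the IL-33 receptor of mast cells and other cells, had 9.18, 9.03 and 6.34 CPM in control libraries 1 to 3, 4.45, 1.92 and 2.01 CPM in the IMQ libraries and 5.24, 9.67 and 11.6 CPM in the LYS libraries. IMQ libraries are the lowest 3, and LYS 2 and LYS 3 are above all controls (log2 fold change -1.47, SE 0.35, edgeR adjusted p = 0.00750, for IMQ against control). Il33 itself had 26.2, 21.8 and 19.96 CPM in control libraries 1 to 3, 149, 132 and 94.3 CPM in the IMQ libraries and 195, 160.4 and 92.3 CPM in the LYS libraries. It rose, with all treated libraries above all controls (log2 fold change 2.53, SE 0.20, edgeR adjusted p = 3.84e-05, for IMQ against control). Mitf, a lineage factor of mast cells and melanocytes, had 35.7, 35.4 and 34.2 CPM in control libraries 1 to 3, 12.6, 8.18 and 7.67 CPM in the IMQ libraries and 10.1, 20.4 and 26.0 CPM in the LYS libraries. Controls are the highest 3 and LYS 1 lies within the IMQ range (log2 fold change -1.82, SE 0.20, edgeR adjusted p = 0.000167, for IMQ against control). Gata2, a factor of mast cell progenitors, was not called (log2 fold change -0.56, SE 0.26, edgeR adjusted p = 0.0986). With all 9 libraries in the fit, Kitl, Il1rl1, Csf2rb2 and Gata2 were called higher and Cebpa lower in LYS against IMQ, where edgeR on the 6 libraries called 0. Of 16 tested in LYS against control 7 rose and 1 (Mitf) fell, with a median of 0.78, and without scaling 6 rose and 1 fell. With RLE scaling 7 rose and 0 fell, so that the fall of Mitf (log2 fold change -0.90, SE 0.29, edgeR adjusted p = 0.0474) was not called.

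Of 15 other mast cell surface receptors, all tested, 1 (Lilrb4a) rose and 3 (Mrgprb1, Ptger3 and S1pr1) fell in IMQ against control, with a median of -0.07. Without scaling 1 was called higher and 5 lower. Ptger3, a prostaglandin E2 receptor, had 65.1, 119 and 54.3 CPM in control libraries 1 to 3, 20.5, 10.3 and 14.8 CPM in the IMQ libraries and 14.5, 31.8 and 36.4 CPM in the LYS libraries. Controls are the highest 3 and IMQ and LYS overlap (log2 fold change -2.32, SE 0.34, edgeR adjusted p = 0.000717, for IMQ against control). In LYS against IMQ 0 of the 15 were called in edgeR, with a median of 0.90, and 6 were called higher with all 9 libraries in the fit. Against control, 6 of the 15 rose and 1 (Ptger3) fell in LYS, with a median of 0.77, and without scaling 5 rose and 1 fell. Among histamine receptors and breakdown enzymes, 3 of 6 were tested, Hrh3 and Aoc1 had at most 3 counts in any library, and Hrh2 rose while Hnmt fell. Their median of 0.38 in IMQ against control became -0.05 without scaling. Of the 3, 1 (Hrh2) rose and 0 fell in LYS against control. Hnmt, which methylates histamine, had 15.04, 16.0 and 9.41 CPM in control libraries 1 to 3, 5.10, 6.19 and 5.09 CPM in the IMQ libraries and 8.27, 9.03 and 11.1 CPM in the LYS libraries. IMQ libraries are the lowest 3 (log2 fold change -1.24, SE 0.24, edgeR adjusted p = 0.00250).

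Markers of other dermal cells also differed between the groups. Fibroblast markers summed to 23106, 29554 and 27052 CPM in control libraries 1 to 3, 10599, 4565 and 3347 CPM in the IMQ libraries and 9282, 15265 and 18859 CPM in the LYS libraries, with Col1a1 the most abundant in control and IMQ and Col3a1 in LYS. Controls are the highest 3, and LYS 1 lies below IMQ 1. All 9 of the list fell in IMQ against control, with a median of -2.07. Of the same 9, 5 fell and 0 rose in LYS against control, with a median of -1.01, and 6 fell without scaling, 4 with RLE scaling and 3 with all 9 libraries in the fit. Endothelium markers summed to 594, 667 and 472 CPM in control libraries 1 to 3, 433, 269 and 198 CPM in the IMQ libraries and 401, 769.8 and 868 CPM in the LYS libraries, with Cdh5 the most abundant in control and Pecam1 in IMQ and LYS. IMQ 1 lies above LYS 1. Of the 8, 5 fell in IMQ against control, with a median of -0.98, and in LYS against control 1 (Vwf) rose and 0 fell, with a median of 0.07, which was -0.04 without scaling, where 0 were called, as with all 9 libraries in the fit. Macrophage and dendritic cell markers summed to 1805, 1496 and 1309 CPM in control libraries 1 to 3, 927, 783 and 712 CPM in the IMQ libraries and 1210.0, 2560.0 and 3100.1 CPM in the LYS libraries, with C1qa the most abundant in each group. IMQ libraries are the lowest 3, and LYS 2 and LYS 3 the highest. Of these 9, 5 fell and 2 rose in IMQ against control, with a median of -0.91, and in LYS against control 1 (Itgax) rose and 0 fell, with a median of 0.48. With all 9 libraries in the fit 5 fell and 1 rose in IMQ against control and 2 rose in LYS against control. Without scaling 7 of these 9 were called lower and 1 higher in IMQ against control, and 7 of the 8 endothelium markers lower.

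Adipocyte markers summed to 5419.9, 8099.8 and 2766 CPM in control libraries 1 to 3, 849, 392.4 and 246 CPM in the IMQ libraries and 876, 1252 and 2203 CPM in the LYS libraries, with Fabp4 the most abundant in control and Cidec in IMQ and LYS, and 6 of 6 fell in IMQ against control (median -3.56). All controls are above all treated libraries. Skeletal muscle markers summed to 9578, 9462 and 8679 CPM in control libraries 1 to 3, 3741, 3917 and 1591 CPM in the IMQ libraries and 3922, 6071 and 8499.8 CPM in the LYS libraries, with Acta1 the most abundant in each group, and 5 of 6 fell (median -1.67). LYS 3 comes near the controls. Smooth muscle and pericyte markers summed to 983, 1014 and 962 CPM in control libraries 1 to 3, 1079, 776 and 409 CPM in the IMQ libraries and 718, 1346 and 1627 CPM in the LYS libraries, with Des the most abundant in each group, and 1 of the 6 tested of 7 fell (median -0.72), but 4 of the 6 without scaling (median -1.16) and 2 of 7 with all 9 libraries in the fit. IMQ 1 lies above all controls in that sum. In LYS against control 6 of 6 adipocyte markers fell (median -2.02), 3 of 6 skeletal muscle markers fell and 1 rose (median -0.75), and of 7 smooth muscle and pericyte markers 1 rose and 0 fell (median 0.25). With all 9 libraries in the fit 3 adipocyte and 2 skeletal muscle markers were called lower there and 0 smooth muscle and pericyte markers were called.

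Hair follicle markers summed to 2945, 1962 and 4011 CPM in control libraries 1 to 3, 129, 114 and 135 CPM in the IMQ libraries and 129.9, 49.2 and 72.2 CPM in the LYS libraries, with Krt71 the most abundant in control and Krt15 in IMQ and LYS, and 7 of 8 fell in IMQ against control. Krt71 had a mean of 1259 CPM in control, 0.138 in IMQ and 0.0849 in LYS. All 8 fell without scaling, and all treated libraries are far below all controls. Keratinocyte markers summed to 6383, 5914 and 9913 CPM in control libraries 1 to 3, 38784, 47758 and 52066 CPM in the IMQ libraries and 31081, 18203 and 17954 CPM in the LYS libraries, with Krt10 the most abundant in control and IMQ and Krt14 in LYS, and 8 of 8 rose (median 2.25), 7 without scaling and 7 with all 9 libraries in the fit. IMQ libraries are the highest 3 and controls the lowest 3. T cell markers summed to 12.0, 9.17 and 10.6 CPM in control libraries 1 to 3, 24.4, 12.5 and 18.3 CPM in the IMQ libraries and 32.7, 40.3 and 31.3 CPM in the LYS libraries, with Cd3g the most abundant in each group, and 4 of 7 rose (median 0.95), but 1 of 7 without scaling (median 0.51). LYS libraries are the highest 3. In LYS against control 7 of 8 hair follicle markers fell (median -8.25), 6 of 8 keratinocyte markers rose (median 1.25; 5 without scaling and 5 with all 9 libraries in the fit) and 5 of 7 T cell markers rose (median 1.73). No list had a gene at 0 in all libraries. In LYS against IMQ edgeR on the 6 libraries called 0 genes of any list, and with all 9 libraries in the fit 7 of 9 macrophage and dendritic cell markers, 6 of 9 fibroblast markers, 5 of 8 endothelium markers, 2 of 7 T cell markers, 2 of 7 smooth muscle and pericyte markers and 1 of 6 adipocyte markers were called higher, and 3 of 8 keratinocyte markers lower. Of the 7 neutrophil markers tested 1 was called higher and 2 lower, and 0 of the melanocyte, skeletal muscle and hair follicle markers were called. The part of any of these cell types in the mast cell results was not tested.

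**Figure D2:**
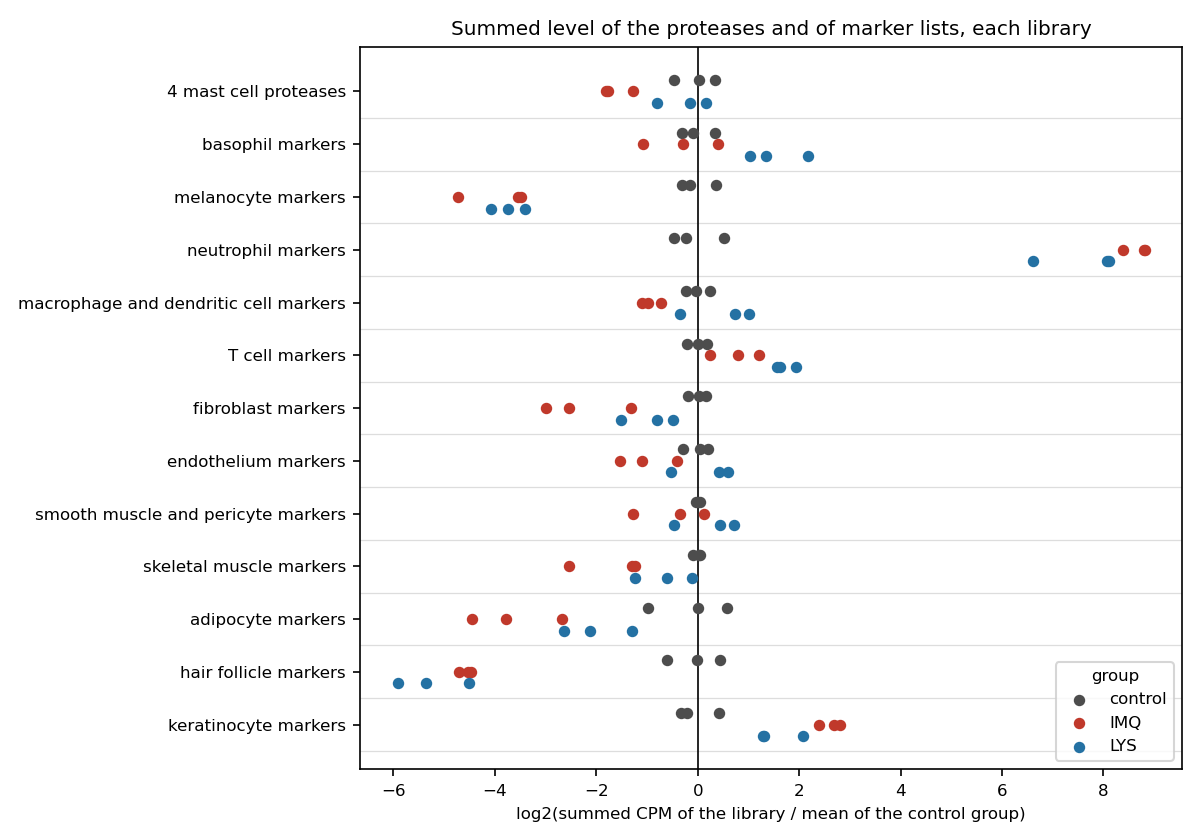
Summed TMM-scaled CPM of the 4 abundant proteases and of 12 marker lists in each library, as log2 of the ratio to the mean of the control group (points, coloured by group; n = 3 per group). The IMQ points lie left of all control points for the proteases, melanocyte, macrophage and dendritic cell, fibroblast, endothelium, skeletal muscle, adipocyte and hair follicle lists, and right of them for the neutrophil, T cell and keratinocyte lists.

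Sums of the 4 proteases were also set against those of 2 dermal lists, a pair chosen after the values were seen. As a percentage of the fibroblast sum they were 0.970, 0.950 and 0.590% in control libraries 1 to 3, 0.862, 1.43 and 1.88% in the IMQ libraries and 1.37, 1.31 and 1.32% in the LYS libraries. IMQ 1 lies within the control range, and the other treated libraries are above it. As a percentage of the endothelium sum they were 37.7, 42.1 and 33.8% in control libraries 1 to 3, 21.1, 24.3 and 31.8% in the IMQ libraries and 31.7, 26.0 and 28.6% in the LYS libraries. All treated libraries lie below all controls there, and IMQ and LYS overlap. The direction depended on the list, as 2 more picked after the values were seen show. Of the adipocyte sum the proteases made 4.46 ± 1.19% in control, 17.7 ± 7.45% in IMQ and 13.9 ± 2.41% in LYS (SD, n = 3). Of the smooth muscle and pericyte sum they made 22.4 ± 5.57%, 10.8 ± 4.02% and 15.9 ± 1.53% in the same order (SD, n = 3). The difference between groups in these percentages was not tested.

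The genes most like the 4 abundant proteases over the 9 libraries were ranked by Pearson r between log2(CPM + 1) and the mean of the 4 standardised proteases, among 14771 genes with a mean CPM of at least 1. This is a description over 9 libraries in 3 groups, with no p. The 10 highest outside the mast cell genes were Vps35l (0.993), Dusp3 (0.993), Tmem184b (0.991), Cds2 (0.990), Agpat1 (0.990), Nr1h3 (0.990), Fam102b (0.988), Dennd2a (0.987), Scarb1 (0.987) and Fcgrt (0.987). With log2(CPM + 0.1) all 10 were again the highest, and with log2(FPKM + 1) 7 of the 10 were shared. Nr1h3 is the liver X receptor alpha, Scarb1 a receptor for high-density lipoprotein and Fcgrt the neonatal Fc receptor. Such values were common, since 1235 genes (8.37%) had an r over 0.9. Pearson r does not measure the size of a difference. In IMQ against control Vps35l had a log2 fold change of -0.25 (edgeR adjusted p = 0.0747) and was not called. The others of these 10 ran from -0.88 (Scarb1) to -1.78 (Dennd2a). Among the 10 mast cell genes r was 0.983 for Cma1, 0.985 for Mcpt4, 0.973 for Tpsb2 and 0.982 for Cpa3, which enter the mean themselves. It was 0.894 for Kit, 0.886 for Mrgprb2, 0.876 for Ms4a2, 0.734 for Tpsab1, 0.535 for Fcer1a and -0.742 for Hdc. On the marker and pathway lists the highest were Gab2 (0.986), Dcn (0.975), Emcn (0.972), S1pr1 (0.971), Tek (0.970), Mrgprb1 (0.969) and Il1rl1 (0.969), of which Dcn marks fibroblasts and Emcn and Tek mark endothelium.

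The chymase genes sit in 1 cluster and the tryptase genes in another. Between the facing ends of Cma1 and Mcpt4 lie 114953 bases, which hold the chymase relatives Cma2, Mcpt1 and Mcpt2, with at most 5, 1 and 5 counts in any library. Beyond Mcpt4 lie Mcpt8 and Ctsg, with at most 31 and 16 counts, and then Gzmc and Gzmb, granzymes of lymphocytes. Neither granzyme was called in IMQ against control (log2 fold change -0.73, edgeR adjusted p = 0.0609 for Gzmc and -0.01, edgeR adjusted p = 0.985 for Gzmb). On the other side of Cma1, Nynrin (-1.01) and Nfatc4 (-1.08) fell, and Tgm1, the transglutaminase of the cornified envelope, rose (3.67). Of 42 protein-coding genes within 400000 bases of the chymases, the pair included, 32 were tested, and 11 (34.4%) rose and 7 (21.9%) fell in IMQ against control, beside 24.1% and 26.9% of all genes tested. Tpsb2 and Tpsab1 lie 20742 bases apart, and of 29 protein-coding genes in the like window 19 were tested, and 4 (21.1%) rose and 2 (10.5%, Tpsb2 and Tmem204) fell. Neighbours outside the gene lists were named after their values were seen.

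**Figure D3:**
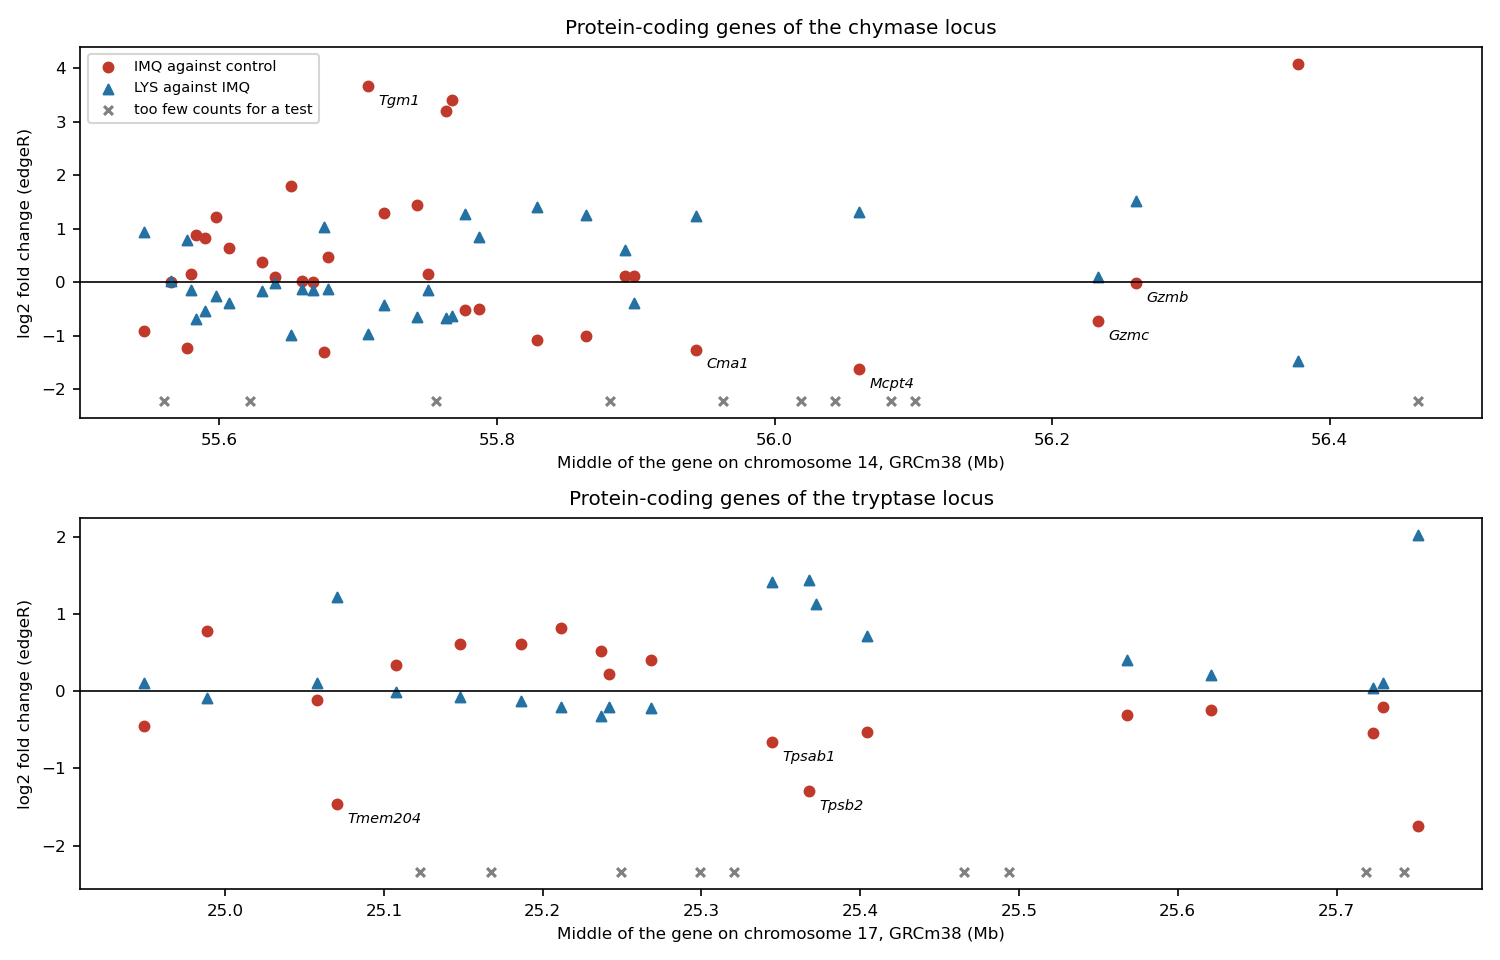
edgeR log2 fold change of protein-coding genes within 400000 bases of the chymases on chromosome 14 (top) and the tryptases on chromosome 17 (bottom), at the middle of each gene in GRCm38 (Mb), for IMQ against control (circles) and LYS against IMQ (triangles), with crosses for genes of too few counts to test. Cma1 and Mcpt4 (-1.25 and -1.62) and Tpsb2 (-1.29) are among the lowest circles. Circles of both signs lie in each window, while each circle to the right of Tpsb2 is below 0.

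Since most of the 10 genes moved together, their promoters were searched for GATAA, the core that GATA factors such as Gata2 bind, and CANNTG, the E-box core that Mitf and Tal1 bind, each on both strands, in the 300 bases from 250 before to 50 after the start of transcription (RefSeq, GRCm38.p6). A match of GATAA and a match of CANNTG can share at most 1 base. Sequences matched 8 of the 10 genes, Tpsb2 and Tpsab1 being the others, and gave 9 promoters, 2 of them for Kit, which overlap in almost all of their bases and hold the same CANNTG match, counted for each. GATAA was found in 6 of the 9, beside 25.4% of all 32851 promoters of that length, and CANNTG in 7 of the 9, beside 72.3%. The promoters of Cma1, Mcpt4, Cpa3, Fcer1a, Ms4a2 and Mrgprb2 held GATAA, and those of Kit and Hdc did not. The Hdc window, chr2:126618629-126618928, lies inside the gene as placed by GENCODE M21, which reaches 126619299. A match is a description of letters and says nothing of a bound factor. Shown are the 250 bases before the start, 5′ to 3′ on the minus strand, for the 3 abundant proteases with a sequence and for Ms4a2, which held 3 matches. They lie at chr14:55944676-55944925 for Cma1, chr14:56062311-56062560 for Mcpt4, chr3:20242182-20242431 for Cpa3 and chr19:11623720-11623969 for Ms4a2. Capitals mark GATAA or its reverse complement TTATC.
Cma1: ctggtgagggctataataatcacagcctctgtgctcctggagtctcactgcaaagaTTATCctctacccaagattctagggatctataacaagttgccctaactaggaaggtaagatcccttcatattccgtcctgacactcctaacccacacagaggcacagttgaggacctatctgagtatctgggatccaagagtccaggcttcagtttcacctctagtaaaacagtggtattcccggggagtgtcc
Mcpt4: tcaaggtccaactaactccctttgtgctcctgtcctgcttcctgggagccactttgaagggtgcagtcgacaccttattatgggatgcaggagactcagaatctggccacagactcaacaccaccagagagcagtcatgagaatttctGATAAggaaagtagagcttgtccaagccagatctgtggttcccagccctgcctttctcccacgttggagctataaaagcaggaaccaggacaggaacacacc
Cpa3: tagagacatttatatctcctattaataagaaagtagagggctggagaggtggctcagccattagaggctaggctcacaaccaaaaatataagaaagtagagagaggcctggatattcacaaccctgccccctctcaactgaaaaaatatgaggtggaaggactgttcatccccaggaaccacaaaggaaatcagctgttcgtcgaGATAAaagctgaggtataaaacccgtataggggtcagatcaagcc
Ms4a2: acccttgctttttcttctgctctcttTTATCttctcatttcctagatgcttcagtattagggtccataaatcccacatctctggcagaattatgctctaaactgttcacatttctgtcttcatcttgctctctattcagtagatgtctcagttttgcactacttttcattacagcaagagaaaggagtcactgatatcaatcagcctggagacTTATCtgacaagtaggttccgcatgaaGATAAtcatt

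Sequence shared between genes bears on the counts of related proteases. Of all 50-base stretches in the annotated transcripts, 5.38% in Cma1 also occur in Gm48934 and 5.48% in Mcpt4 occur in Cma2 or Mcpt9. In Ms4a2 2.10% occur in Ms4a4b, and in Hdc 0.14% occur in Pdgfra, Vmn2r70 or Gm18064. Tpsb2 and Tpsab1 share none with each other or with any other gene. How reads that fit more than 1 gene were counted is not stated.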

How the data were processed

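RNA was extracted with Trizol and libraries were made with a NEBNext Ultra kit, which does not mark the strand. The submitters' notes name HISAT2, HTSeq 0.13.5 and GRCm38 without giving each one's role or order. The deposited table gives for each gene a count and an FPKM value per library, both made by the authors, and holds no columns of differential expression. FPKM was checked against the counts and follows from 1 length per gene, which for 98.5% of 29107 matched genes equals the GENCODE M21 exon length. Counts were tested with edgeR 4.0.16 in R 4.3.3 (TMM, filterByExpr, quasi-likelihood F test, Benjamini-Hochberg over all genes tested), separately for each pair of groups, and SE was derived from F. The procedure was tested on simulated data. Alternatives were RLE scaling, no scaling, no filter on low counts, DESeq2 1.42.0, all 9 libraries in 1 fit, no minimum fold change, each library left out in turn and a block on replicate number. No pairing of library numbers across groups is stated (values are in the closing section), so the block was not used for the main values. Python 3.11.15, numpy 2.4.6, pandas 2.3.3 and matplotlib 3.10.9 served for tables and figures. Genes named are the 10 genes, the listed genes of 5 mast cell pathways and 12 marker lists, and the 10 genes most like the proteases; genes at the 2 loci were added after their values were seen. The 10 genes and the lists were chosen with earlier results of these data known. Il4 is on both the basophil and the growth factor list.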

Additional observations from a re-analysis of the deposited data

How the results depend on the processing

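For IMQ against control, all results (2 counts and 10 fold changes) kept their direction and side of the threshold under each alternative. For LYS against IMQ, genes called went from 0 to 2419 without a filter on low counts, 3345 with DESeq2 and 3040 with all 9 libraries in the fit, and the mast cell genes called from 0 to 6, 7 and 7, all higher. Leaving out 1 library at a time gave 0 to 4262 genes and 0 to 7 mast cell genes, with 1873 and 5 without IMQ 1 and 4262 and 7 without LYS 1. No fold change of LYS against IMQ changed sign. For LYS against control, DESeq2 called 2 mast cell genes in place of 1, and leaving out 1 library gave 2579 (without control 1) to 5072 genes, with 2947 without control 2 and 2926 without LYS 2. Log2 fold changes near 0 in that comparison turned, Tpsb2 to -0.018 without scaling, and with 1 library left out the differences spanned -0.25 to 0.41 for Tpsb2, -0.27 to 0.13 for Cma1, -0.35 to 0.35 for Fcer1a and -0.045 to 0.34 for Ms4a2. Without a change of sign they spanned -0.57 to -0.15 for Cpa3 and -0.56 to -0.19 for Mcpt4 there, 0.053 to 0.73 for Fcer1a and -1.13 to -0.36 for Hdc in LYS against IMQ. Of the 10 genes most like the proteases, 7 were shared with log2(FPKM + 1) and 10 with log2(CPM + 0.1). A replicate block gave 8044, 0 and 3126 genes and 8, 0 and 1 mast cell genes in the order IMQ against control, LYS against IMQ and LYS against control. Pearson r across genes between libraries of the same number, each taken relative to its group, was 0.00849, -0.0615 and 0.214 for IMQ and control, -0.476, 0.0844 and -0.430 for LYS and IMQ, and -0.124, 0.0195 and -0.392 for LYS and control. Between libraries of different number it ran from -0.230 to 0.221, from -0.251 to 0.496 and from -0.294 to 0.388 in the same order. Deviations from a mean of 3 libraries depend on each other, so these r values do not settle whether libraries were paired. The cause was not tested in any of these. With 3 to 55 counts of Ms4a2, 10 to 38 of Fcer1a and 4 to 83 of Mrgprb2 per library, counts limit the precision of the levels of these genes.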
